A study of Mus musculus with 18 samples.

Results

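The kidney genes of distal calcium and magnesium handling were taken as 10 genes, Trpv5, Calb1, S100g, Slc8a1, Trpm6, Trpm7, Egf, Pvalb, Casr and Cldn16. They were found by gene symbol, each as 1 row, among the 32675 genes of the deposited table. The rule used symbols alone, although the genes were proposed with earlier results of these data known. All 10 passed the filter on low counts that left 19946 genes for testing.

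The last segments of the nephron decide how much calcium and magnesium is lost in urine. In the distal convoluted and connecting tubule, calcium enters the cell through a channel of the urinary side, is carried across the cell by calbindins, and leaves on the blood side through an exchanger and a pump, while magnesium enters through a channel of its own. In the thick ascending limb, both ions pass between the cells, through pores that claudins form and that the calcium-sensing receptor restrains. The transcellular route is known to respond to vitamin D, parathyroid hormone and sex steroids, and the magnesium channel to epidermal growth factor.

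Right kidneys of 18 wild-type male C57BL/6 mice, labelled as 6 weeks old, were compared in 3 groups of 6. The authors' methods give this age for the mice as obtained, before acclimatization and the weeks of defeat. Mice of the PBS and FLX groups underwent chronic social defeat stress (CSDS), in which an aggressive CD-1 mouse attacks the smaller mouse for 10 min a day, with sensory contact for the rest of the day, over 2 weeks. The PBS group was injected intraperitoneally with phosphate-buffered saline each day, and the FLX group with 10 mg per kg fluoxetine, an inhibitor of serotonin reuptake, in the same solution. Ctrl mice were handled and housed in cages of the same kind but were not defeated, and no injection is described for them, so that defeat and injection cannot be told apart between PBS and Ctrl. No defeat-free group received fluoxetine. Each library is poly(A) RNA of a whole kidney, in which fewer cells of a type and less RNA per cell cannot be told apart.

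The sum of counts of a mouse lay between 72149987 and 79061296 in 14 mice and between 48928823 and 52073640 in FLX replicates 3 to 6. PBS replicate 6 had the lowest median correlation with its own group (Pearson's r of log2(FPKM + 0.1) across genes, 0.966), followed by PBS replicate 5 (0.976), FLX replicate 5 (0.979) and Ctrl replicate 3 (0.980). PBS replicate 6 held 58.8 FPKM of 4 neutrophil genes against 1.03 to 3.06 in the Ctrl mice, 63.5 FPKM of 3 genes of injured tubules, and the lowest sum of 5 proximal tubule genes, 694 FPKM. The authors removed 1 PBS mouse that their text does not name. All 6 were kept here, and values without PBS replicate 6 stand beside some, but not all, of the results in PBS mice. Thick limb markers (Slc12a1, Umod, Kcnj1 and Ptger3) summed to 791 to 1462 FPKM over the 18 mice, and distal convoluted tubule markers (Slc12a3, Klhl3, Tmem52b and Emx1) to 90.1 to 152 FPKM, so that both segments were sampled in each kidney. FPKM is the number of sequenced fragments scaled to transcript length and to the size of the library, and it allows levels of different genes to be compared.

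Promoter sequence of 3 genes is shown because Trpv5 and Trpm6 are the apical channels that rose with CSDS, while S100g, whose gene is a textbook target of the vitamin D receptor, is the calbindin that did not pass the test. Each line is bases 250 to 51 before the RefSeq transcript start in GRCm38.p6, read 5′ to 3′ on the strand of the gene. Trpv5 lies at chr6:41680774-41680973 (minus strand), Trpm6 at chr19:18749480-18749679 (plus strand) and S100g at chrX:162964650-162964849 (minus strand). Capitals mark matches on either strand to AGGTCA, to its relative GGGTCA, which differs in the first base, or to the relative GGTTCA, the half-sites of vitamin D and related nuclear receptors.
Trpv5: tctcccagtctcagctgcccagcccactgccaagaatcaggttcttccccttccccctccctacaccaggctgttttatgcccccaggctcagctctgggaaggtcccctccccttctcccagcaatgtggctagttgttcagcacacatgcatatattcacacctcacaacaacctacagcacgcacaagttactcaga
Trpm6: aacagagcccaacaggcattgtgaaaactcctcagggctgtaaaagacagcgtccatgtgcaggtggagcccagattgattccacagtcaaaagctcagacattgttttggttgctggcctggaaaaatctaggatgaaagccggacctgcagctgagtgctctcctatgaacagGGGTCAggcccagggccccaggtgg
S100g: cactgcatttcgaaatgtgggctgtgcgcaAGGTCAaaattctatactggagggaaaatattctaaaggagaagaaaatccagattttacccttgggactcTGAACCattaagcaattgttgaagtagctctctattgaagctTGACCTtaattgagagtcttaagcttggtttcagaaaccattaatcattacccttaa
The Trpv5 window held none of the 3 words. The Trpm6 window held GGGTCA at 75 bases before the start. The S100g window held AGGTCA at 220 bases and, on the opposite strand, at 107 bases, and GGTTCA on the opposite strand at 149 bases. Of 32851 promoter windows of the same length, 11.4% held AGGTCA, 9.41% GGGTCA, 7.23% GGTTCA and 25.3% any of these, so the words are common. AGAACA, a half-site of steroid hormone receptors present in 13.2% of windows, was found at 94 bases before the start of Cldn16 and in none of the other member windows. Windows were at hand for 9 of the 10 genes, Calb1 being the exception, and 3 of the 11 windows of these genes (Pvalb and Egf have 2 each) held any of the 4 words. A match is a run of letters and not a measured binding site.

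In Ctrl kidneys the levels of the 10 genes spanned a wide range. S100g was highest, at 1852 ± 427 FPKM (SD, n = 6), and exceeded Egf, the next gene, in every Ctrl mouse, by 27.9 times on average. Egf (66.4 ± 15.4) and Calb1 (64.3 ± 8.40) overlapped. Pvalb followed at 27.3 ± 7.79 FPKM, below every Ctrl value of Calb1 and above every Ctrl value of Trpm7. Trpm7 (7.65 ± 1.86), Cldn16 (6.98 ± 1.05), Slc8a1 (4.11 ± 1.08), Casr (3.99 ± 1.23) and Trpv5 (3.28 ± 0.407) each overlapped the next gene in this order. Trpm6 was lowest, at 1.40 ± 0.318 FPKM, without overlap with Trpv5. The RNA of the 3 calcium-binding proteins was therefore more abundant than that of the 3 channels in these mice.

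**Figure D1:**
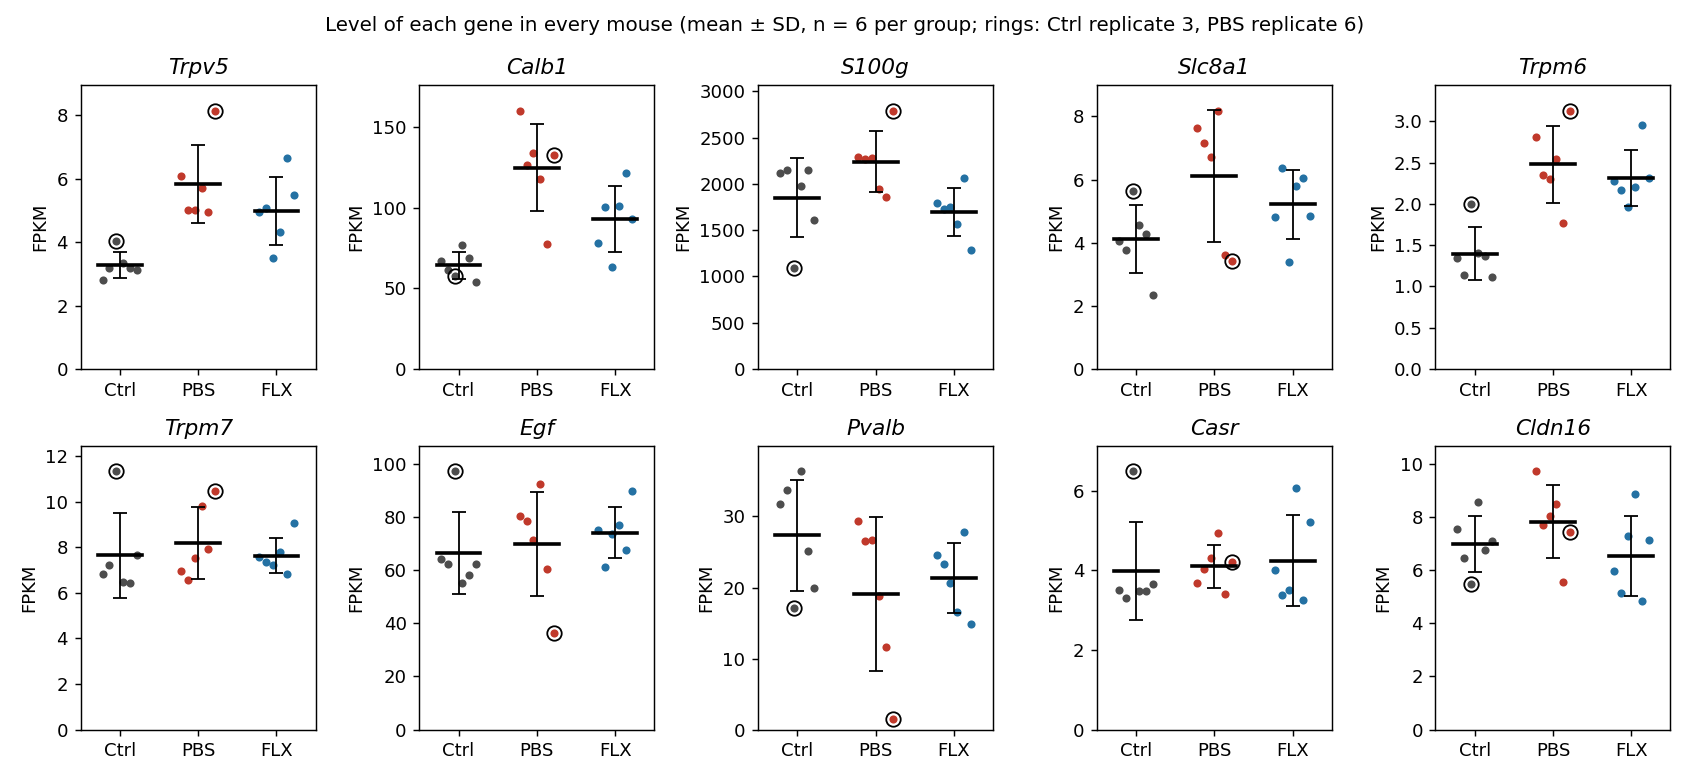
Level of the 10 genes in each mouse (y axis, FPKM; x axis, group; points, mice; line and bar, mean ± SD, n = 6; rings, Ctrl replicate 3 and PBS replicate 6). All 6 PBS mice lie above all Ctrl mice for Trpv5 and Calb1, and 5 of 6 for Trpm6, while the groups overlap for the other genes.

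PBS versus Ctrl addresses the effect of CSDS, with its injections, on these genes. Trpv5, Trpm6 and Calb1 rose, and the other 7 genes did not pass the test. The 3 called genes are 3 of 10, against 4.28% of all genes tested that were called in either direction and 2.45% called higher (edgeR's quasi-likelihood test, adjusted p under 0.05 over 19946 genes). The median log2 fold change of the 10 genes was 0.21, with 9 of 10 above 0, against -0.001 over all genes tested. Without any overlap between PBS and Ctrl mice were 2 of the 10 genes, against 2.75% of all genes. At the study's own limit, an absolute log2 fold change over 1 at an unadjusted p under 0.05, 0 of 10 genes were called, against 3.77% of all genes.

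Trpv5 (ENSMUSG00000036899, chromosome 6, 41652173 to 41680769, GRCm38) encodes the apical calcium channel of the distal convoluted and connecting tubule. Its level in the Ctrl mice was 2.82 FPKM at lowest, 3.19 at the median and 4.03 at highest, and in the PBS mice 4.96, 5.37 and 8.15. Every PBS mouse lay above every Ctrl mouse. The mean rose from 3.28 ± 0.407 to 5.83 ± 1.23 FPKM (SD, n = 6 each), a log2 fold change of 0.83 (SE 0.14, where SE is the standard error, adjusted p = 0.00338 with edgeR). The exact two-sided permutation test of log2(FPKM + 0.1) gave p = 0.00216, the smallest that 6 against 6 mice allow. The highest PBS value was that of PBS replicate 6, and the log2 fold change without it was 0.72 (adjusted p = 0.00447).

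Calb1 (ENSMUSG00000028222, chromosome 4, 15881264 to 15908064) encodes the larger calbindin, which buffers calcium and carries it through the same cells. Ctrl mice ranged from 53.7 over a median of 64.3 to 77.0 FPKM, and PBS mice from 77.8 over 129.8 to 160.2 FPKM. The groups did not overlap, although the lowest PBS mouse, replicate 5, was close to the highest Ctrl mouse, replicate 4. Calb1 rose from 64.3 ± 8.40 to 125 ± 27.1 FPKM (SD, n = 6 each). This was the largest log2 fold change of the 10 genes, 0.96 (SE 0.16, adjusted p = 0.00296 with edgeR; exact permutation p = 0.00216), and it was 0.95 without PBS replicate 6 (adjusted p = 0.00354).

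S100g (ENSMUSG00000040808, chromosome X, 162961992 to 162964599) encodes the smaller calbindin, which has the same role and is abundant in mouse kidney. It stood at 1089, 2051 and 2156 FPKM in Ctrl mice (lowest, median and highest) and at 1860, 2275 and 2791 FPKM in PBS mice. The groups overlapped, since 4 of 6 PBS values exceeded all Ctrl values, with Ctrl replicate 3 far below the other Ctrl mice. The log2 fold change was 0.26 (SE 0.16, adjusted p = 0.395), and 0.14 (adjusted p = 0.540) without Ctrl replicate 3. The calbindin genes were then compared with each other. Within a mouse, S100g was 28.8 ± 5.68 times the level of Calb1 in Ctrl and 18.4 ± 3.45 times in PBS (SD, n = 6 each), a log2 difference of -0.63. The exact permutation test of this ratio gave p = 0.00866, and 0.0519 after adjustment over 30 tests (10 ratios in 3 comparisons). Without Ctrl replicate 3 the difference was -0.75, and the adjusted p was 0.0260.

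Slc8a1 (ENSMUSG00000054640, chromosome 17, 81373105 to 81738377) encodes the sodium-calcium exchanger of the blood side. Ctrl mice had 2.36, 4.17 and 5.65 FPKM (lowest, median and highest), and PBS mice 3.41, 6.93 and 8.18 FPKM. PBS replicates 1 to 4 lay above every Ctrl mouse, and PBS replicates 5 and 6 within the Ctrl range. The log2 fold change of 0.59 (SE 0.23) did not pass the test (unadjusted p = 0.0207, adjusted p = 0.162), and it was 0.71 (adjusted p = 0.0711) without PBS replicate 6. Exons of Slc8a1 overlap those of 2 genes on the opposite strand, and the sources used here do not say whether counting used strand.

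Trpm6 (ENSMUSG00000024727, chromosome 19, 18749983 to 18892511) encodes the apical magnesium channel of the distal convoluted tubule, loss of which causes low blood magnesium. Its level ranged from 1.12 over 1.36 to 2.00 FPKM in Ctrl mice and from 1.77 over 2.45 to 3.13 FPKM in PBS mice. PBS replicate 5 lay below Ctrl replicate 3, and the other 5 PBS mice lay above every Ctrl mouse. The mean rose from 1.40 ± 0.318 to 2.48 ± 0.467 FPKM (SD, n = 6 each), a log2 fold change of 0.83 (SE 0.14, adjusted p = 0.00338 with edgeR; exact permutation p = 0.00433). It was 0.77 (adjusted p = 0.00551) without PBS replicate 6 and 0.94 (adjusted p = 0.00140) without Ctrl replicate 3.

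Trpm7 (ENSMUSG00000027365, chromosome 2, 126791565 to 126876230) encodes the closest relative of this channel, also with a kinase domain, and is expressed in nearly all cell types. Its level was 6.41, 7.01 and 11.3 FPKM in Ctrl mice and 6.57, 7.72 and 10.5 FPKM in PBS mice (lowest, median and highest). The groups overlapped over almost their whole range, with a log2 fold change of 0.11 (SE 0.13, adjusted p = 0.711). The paralogs were then compared within each mouse. Trpm6 was 0.185 ± 0.0293 of the level of Trpm7 in Ctrl and 0.308 ± 0.0652 in PBS (SD, n = 6 each). Every PBS mouse had a higher ratio than every Ctrl mouse. The log2 difference of 0.73 passed the exact permutation test (p = 0.00216, adjusted p = 0.0216 over 30 tests). The same values followed without PBS replicate 6, and without Ctrl replicate 3 the difference was 0.72 (adjusted p = 0.0260).

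Egf (ENSMUSG00000028017, chromosome 3, 129677565 to 129755316) encodes the precursor of epidermal growth factor, made in the thick limb and distal convoluted tubule and known to stimulate the magnesium channel. It was at 55.0, 62.1 and 97.0 FPKM in Ctrl mice and at 36.4, 74.9 and 92.2 FPKM in PBS mice. The lowest value of all 18 mice was that of PBS replicate 6, at 47.6% of the mean of the other 5 PBS mice, and the highest that of Ctrl replicate 3. The log2 fold change was 0.09 (SE 0.18, adjusted p = 0.842), and 0.22 without PBS replicate 6 (adjusted p = 0.417). Exons of Egf overlap antisense genes, as with Slc8a1.

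Pvalb (ENSMUSG00000005716, chromosome 15, 78191114 to 78206400) encodes parvalbumin, a calcium-binding protein of the early distal convoluted tubule. Ctrl mice had 17.1, 28.5 and 36.3 FPKM, and PBS mice 1.51, 22.6 and 29.4 FPKM (lowest, median and highest). PBS replicate 6, with 133 counts, held 6.70% of the mean of the other 5 PBS mice, the lowest share among the 10 genes, although its Slc12a3, the sodium-chloride cotransporter gene of the same segment, stood at 74.0 FPKM and thus between the lowest (54.0) and highest (88.4) of the other PBS mice. The log2 fold change was -0.52 (SE 0.42, adjusted p = 0.533), and -0.27 (adjusted p = 0.621) without this mouse.

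Casr and Cldn16, both of the thick limb, were not called. Casr (ENSMUSG00000051980, chromosome 16, 36493696 to 36562141), the calcium-sensing receptor, was at 3.31, 3.50 and 6.49 FPKM in Ctrl mice and at 3.41, 4.13 and 4.95 FPKM in PBS mice (lowest, median and highest). The PBS range lay inside the Ctrl range, which Ctrl replicate 3 extended upward. Cldn16 (ENSMUSG00000038148, chromosome 16, 26463135 to 26482765), the claudin that lets calcium and magnesium pass between cells, was at 5.47, 6.93 and 8.57 FPKM in Ctrl and 5.57, 7.88 and 9.71 FPKM in PBS. The log2 fold changes were 0.05 for Casr (SE 0.16, adjusted p = 0.902) and 0.16 for Cldn16 (SE 0.16, adjusted p = 0.616). The level of Casr in Ctrl replicate 3 was 186% of the mean of the other 5 Ctrl mice. Its log2 fold change without this mouse was 0.22 (adjusted p = 0.336).

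**Figure D2:**
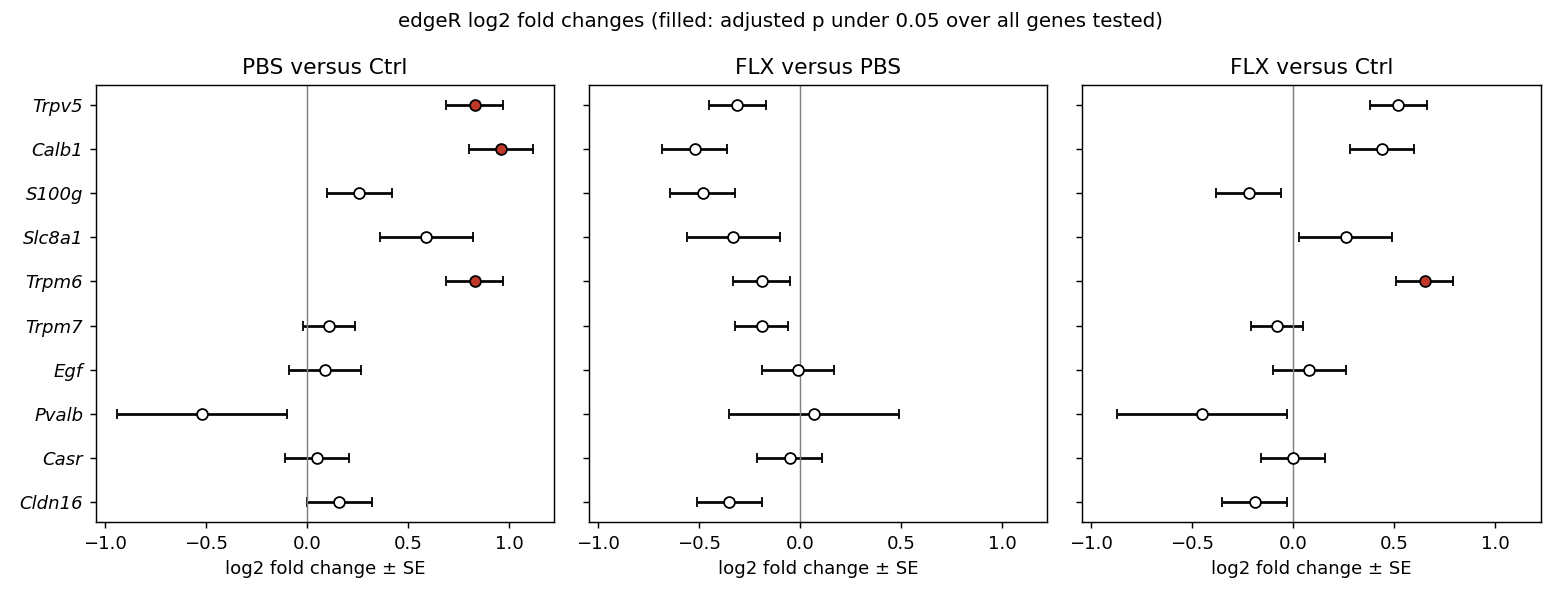
Log2 fold change ± standard error (x axis) of each gene (y axis) in the 3 comparisons, from 1 edgeR model over 18 mice, with filled points for adjusted p under 0.05 over all genes tested. Trpv5, Calb1 and Trpm6 are filled in PBS versus Ctrl, no gene in FLX versus PBS, and Trpm6 alone in FLX versus Ctrl.

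Distal convoluted tubule markers were examined beside these rises. The sum of the 4 markers was 90.1 to 145 FPKM in Ctrl, 102 to 152 in PBS and 97.7 to 136 in FLX mice, with none at 0 throughout a group. All 4 had a positive log2 fold change in PBS versus Ctrl (median 0.28), and 0 of 4 were called with edgeR. It was 0.24 for Slc12a3 (SE 0.13, adjusted p = 0.342), 0.33 for Klhl3 (adjusted p = 0.172), 0.38 for Tmem52b (adjusted p = 0.167) and 0.10 for Emx1 (adjusted p = 0.714). Those of Klhl3 and Tmem52b had an unadjusted edgeR p of 0.0232 and 0.0218, and both were called without Ctrl replicate 3 (adjusted p = 0.0262 and 0.0132, with 8.52% of all genes called). Relative to Slc12a3 in the same mouse, Trpm6 was 0.0237 ± 0.00202 in Ctrl and 0.0363 ± 0.00656 in PBS (SD, n = 6 each), a log2 difference of 0.60. Of these ratios only the PBS replicate 5 value lay within the Ctrl range (exact permutation p = 0.00433, adjusted p = 0.0325). Calb1 relative to Slc12a3 was 1.13 ± 0.247 in Ctrl and 1.83 ± 0.442 in PBS, a log2 difference of 0.70 that did not pass after adjustment (exact permutation p = 0.0108, adjusted p = 0.0541). The ratio of Trpv5 to Calb1, both called, was 0.0520 ± 0.0106 in Ctrl and 0.0481 ± 0.0119 in PBS (adjusted p = 0.756). Markers in the lists of other cell types also moved in PBS versus Ctrl, and no list was made for the connecting tubule. Of 7 principal cell markers, 6 had a positive log2 fold change and 1 a negative one. Called higher with edgeR were 2 of 7, against 2.45% of all genes. These were Scnn1g (0.48, adjusted p = 0.0304) and Scnn1b (0.47, adjusted p = 0.0473). Without PBS replicate 6 they were at 0.35 (adjusted p = 0.0458) and 0.32 (adjusted p = 0.0753). All 3 podocyte markers were positive, and 0 of 3 were called. The sum of 4 neutrophil genes was 6.20 to 58.8 FPKM in PBS and 1.03 to 3.06 in Ctrl, with none of the 4 at 0 throughout either group, and that of 3 smooth muscle genes was 41.7 to 108 FPKM against 21.7 to 47.6. Ratios to Slc12a3 were tested for Trpm6 and Calb1 but not for Trpv5. Beyond these ratios, the part of the markers of any of these cells in the rises of Trpv5, Trpm6 and Calb1 was not tested.

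**Figure D3:**
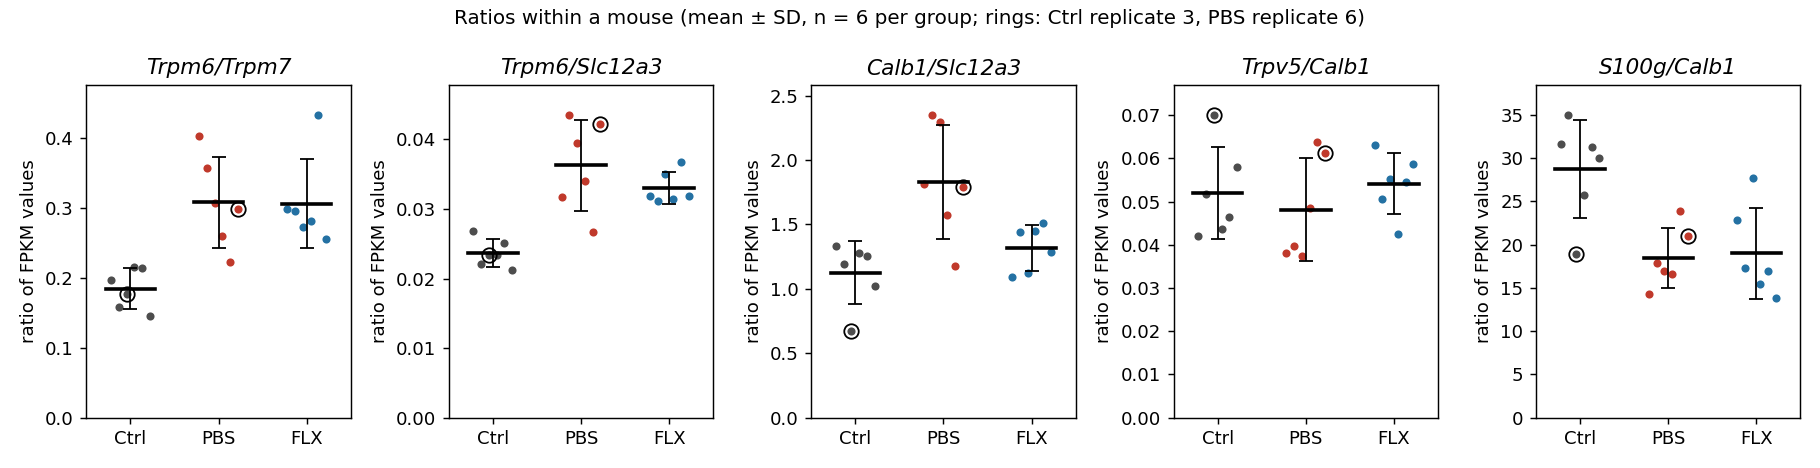
Ratio of the FPKM values of 2 genes within each mouse (y axis, no unit) by group (x axis), with points for mice, line and bar for the mean ± SD (n = 6), and rings for Ctrl replicate 3 and PBS replicate 6. Trpm6/Trpm7 is above the Ctrl range in all PBS and FLX mice, and Trpm6/Slc12a3 in all FLX mice.

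FLX versus PBS asks what fluoxetine added under CSDS. None of the 10 genes was called, against 0.557% of all genes tested (edgeR's quasi-likelihood test), and DESeq2 also called none, against 3.01% of all genes. At an unadjusted p under 0.05, Calb1, S100g, Trpv5 and Cldn16 were lower in FLX, 4 of 10 against 6.39% of all genes lower at this limit. The median log2 fold change was -0.25, with 9 of 10 genes below 0, against -0.01 over all genes. Without overlap were 0 of 10 genes, against 2.04% of all genes, and 0 of 10 passed the study's own limit, against 2.28%.

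Calb1 had 63.0, 96.8 and 122 FPKM in FLX mice (lowest, median and highest). Of these mice 5 of 6 lay within the PBS range and the last below it. The mean of 93.0 ± 20.3 FPKM (SD, n = 6) lay between those of Ctrl and PBS, with a log2 fold change of -0.52 against PBS (SE 0.16, adjusted p = 0.152 with edgeR; exact permutation p = 0.0584). Calb1 was called in 1 of 18 fits that left out 1 mouse, the fit without PBS replicate 5 (adjusted p = 0.0394). This mouse was the lowest of its group in Calb1. That fit called 152 genes over all genes, against 111 in the main fit. S100g was at 1290, 1738 and 2066 FPKM in FLX mice, and 5 of 6 lay below every PBS mouse. Its log2 fold change was -0.48 (SE 0.16, adjusted p = 0.197; exact permutation p = 0.00866), and -0.42 without PBS replicate 6 (adjusted p = 0.314). Trpv5 was at 3.49, 5.01 and 6.65 FPKM in FLX mice, with a log2 fold change of -0.31 (SE 0.14, adjusted p = 0.388). Without PBS replicate 6 that of Trpv5 was -0.20 (adjusted p = 0.632). Cldn16 was at 4.86, 6.54 and 8.86 FPKM, with a log2 fold change of -0.35 (SE 0.16, adjusted p = 0.375).

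Trpm6 ranged from 1.97 over 2.24 to 2.96 FPKM in FLX mice and overlapped the PBS mice widely, with a log2 fold change of -0.19 (SE 0.14, adjusted p = 0.666). The values of Slc8a1 (3.39 to 6.36 FPKM), Casr (3.27 to 6.08), Egf (61.3 to 89.7), Pvalb (14.8 to 27.8) and Trpm7 (6.83 to 9.04) in FLX also overlapped those in PBS, with log2 fold changes of -0.33, -0.05, -0.01, 0.07 and -0.19. Those of Casr, Egf and Pvalb changed sign under some of the alternatives and were at most 0.17 in size without PBS replicate 6. None of the 10 ratios passed in this comparison, and Trpm6/Trpm7 was at 0.307 ± 0.0640 in FLX (SD, n = 6) against 0.308 in PBS (exact permutation p = 0.989, adjusted p = 0.989).

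FLX versus Ctrl compares defeated mice under fluoxetine with undefeated mice, and it shares its mice with both comparisons above, so it is not independent of them. Trpm6 was called higher, 1 of 10 genes against 1.77% of all genes called in either direction and 1.01% called higher. The median log2 fold change of the 10 genes was 0.04, with 6 of 10 above 0, against -0.009 over all genes. On log2(FPKM + 0.1) with limma, the median over all genes was 0.064 here and 0.069 in FLX versus PBS. The permutation tests of single genes use this scale, so they hold a small shift toward higher FLX values. Without overlap were 0 of 10 genes, against 3.44% of all genes. The study's own limit gave 0 of 10, against 2.09% of all genes, and DESeq2 gave 2 of 10 (Trpm6 and Trpv5), against 6.77%.

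For Trpm6, 5 of 6 FLX mice lay above every Ctrl mouse, the exception being FLX replicate 3, just below Ctrl replicate 3. The mean was 2.31 ± 0.339 FPKM in FLX and 1.40 ± 0.318 in Ctrl (SD, n = 6 each), a log2 fold change of 0.65 (SE 0.14, adjusted p = 0.0295 with edgeR; exact permutation p = 0.00433). With 1 mouse left out the adjusted p was between 0.00440 and 0.0836, and the call was lost in 9 of 18 such fits, those without Ctrl replicate 1, 2, 4, 5 or 6 or FLX replicate 1, 2, 5 or 6. Those 9 fits called 68 to 194 genes over all genes, against 354 in the main fit. In FLX replicates 1 and 2, with totals like the other groups, the log2 fold change was 0.64 (adjusted p = 0.469), and in FLX replicates 3 to 6 it was 0.65 (adjusted p = 0.106). The fits on these parts of the group called 2 and 35 genes over all genes. Relative to Trpm7, Trpm6 was higher in every FLX mouse than in every Ctrl mouse, with a log2 difference of 0.72, and relative to Slc12a3 likewise, with 0.48 (exact permutation p = 0.00216 and adjusted p = 0.0216 for each). The sum of the smooth muscle markers was 40.8 to 95.7 FPKM in FLX, and that of the neutrophil markers 0.0833 to 4.33 FPKM, with Ly6g at 0 in every FLX mouse. Their part in the rise of Trpm6 was not tested.

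Trpv5 gave 0.52 (SE 0.14, adjusted p = 0.0652 with edgeR; exact permutation p = 0.00433), and 5 of the 6 FLX values exceeded all Ctrl values. It was called without PBS replicate 6 (adjusted p = 0.0312), which enters this comparison through the shared estimate of spread, and without Ctrl replicate 3 (0.0221) or FLX replicate 3 (0.0297). These fits called 744, 2103 and 396 genes over all genes, in this order, against 354 in the main fit. The log2 fold change of Trpv5 was 0.52 without PBS replicate 6 and 0.57 without Ctrl replicate 3. Calb1 gave 0.44 (SE 0.16, adjusted p = 0.157; exact permutation p = 0.0130), with 5 of 6 FLX mice above every Ctrl mouse. S100g was at 1698 ± 257 FPKM in FLX, below its Ctrl mean, with a log2 fold change of -0.22 (SE 0.16, adjusted p = 0.512). The ratio of S100g to Calb1 was 19.0 ± 5.24 in FLX, a log2 difference of -0.61 from Ctrl (exact permutation p = 0.0173, adjusted p = 0.0742), and -0.73 without Ctrl replicate 3 (adjusted p = 0.0371). The other 6 genes had log2 fold changes between -0.45 (Pvalb) and 0.26 (Slc8a1), none of them called.

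Other genes of the same physiology were examined as 3 lists of 28 genes in all, chosen by function. In PBS versus Ctrl 0 of 28 were called with edgeR (4.28% of all genes), 4 with DESeq2 (9.52% of all genes) and 8 at an unadjusted p under 0.05, all 8 higher, against 10.6% of all genes higher at this limit. Without Ctrl replicate 3, edgeR called 3 of them (Atp2b1, Atp2b4 and Kcnj10), against 8.52% of all genes, and without PBS replicate 6 it called 1 (Cnnm2), against 3.81%. In FLX versus PBS 1 of 28 was called, Cyp24a1, against 0.557% of all genes. The same 1 gene was called in FLX versus Ctrl, against 1.77%, and 3 (Atp2b1, Atp2b4 and Cyp24a1) without Ctrl replicate 3, against 10.4%. The median log2 fold changes were 0.18, -0.14 and 0.07 in the 3 comparisons.

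Of 10 calcium transport genes, 8 had a positive log2 fold change in PBS versus Ctrl, with a median of 0.33. Trpv6, the epithelial calcium channel most like Trpv5, was low, at 0.345 ± 0.0951 FPKM in Ctrl and 0.589 ± 0.142 in PBS (SD, n = 6 each). Its PBS and Ctrl ranges met only at their ends, 0.464 and 0.478 FPKM. The log2 fold change was 0.76 (SE 0.23, adjusted p = 0.0703 with edgeR and 0.0223 with DESeq2), and 0.64 without PBS replicate 6 (adjusted p = 0.143 with edgeR). Atp2b4, a plasma membrane calcium pump that works beside the exchanger, was at 1.11 ± 0.298 FPKM in Ctrl and 1.73 ± 0.600 in PBS, with a log2 fold change of 0.65 (SE 0.20, adjusted p = 0.0675 with edgeR and 0.0183 with DESeq2). Without PBS replicate 6 it was 0.47 (adjusted p = 0.148 with edgeR).

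Of 12 magnesium genes, 9 had a positive log2 fold change in PBS versus Ctrl, with a median of 0.16. Kcnj10, the potassium channel that sets the membrane voltage of the distal convoluted tubule, was at 7.25 ± 1.70 FPKM in Ctrl and 10.2 ± 2.37 in PBS. Its log2 fold change was 0.50 (SE 0.15, adjusted p = 0.0692 with edgeR and 0.0162 with DESeq2), and 0.42 without PBS replicate 6 (adjusted p = 0.139 with edgeR). Cnnm2, a membrane protein needed for magnesium reabsorption, was at 4.27 ± 0.531 FPKM in Ctrl and 5.66 ± 1.14 in PBS, with a log2 fold change of 0.41 (SE 0.13, adjusted p = 0.0877 with edgeR and 0.0413 with DESeq2). It was 0.48 without PBS replicate 6 and passed the edgeR test there (adjusted p = 0.0426). Both ranges overlapped between the groups.

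Of 6 genes of vitamin D and parathyroid hormone, Cyp24a1, the enzyme that inactivates vitamin D, fell with fluoxetine. It was at 12.6, 36.9 and 42.9 FPKM in Ctrl, 10.6, 33.7 and 71.4 FPKM in PBS and 7.53, 13.3 and 16.7 FPKM in FLX mice (lowest, median and highest). Apart from Ctrl replicate 6 and PBS replicate 2, which lay within the FLX range, every Ctrl and PBS mouse lay above every FLX mouse. The log2 fold change was -1.62 in FLX versus PBS (SE 0.34, adjusted p = 0.0358) and -1.55 in FLX versus Ctrl (SE 0.34, adjusted p = 0.0295), both with edgeR. PBS replicate 6 had the highest value, and without it the former was -1.32 (adjusted p = 0.0575) and the latter -1.55 (adjusted p = 0.0109). With 1 mouse left out the adjusted p was between 0.00775 and 0.0852 in FLX versus PBS and between 0.0109 and 0.0766 in FLX versus Ctrl. The call was lost in the former without any 1 of the 6 FLX mice, PBS replicate 1, 4 or 6 or Ctrl replicate 1, 4 or 5, and in the latter without FLX replicate 1, 2, 4, 5 or 6 or Ctrl replicate 1, 2, 4 or 5. The fits that lost it called 33 to 147 genes over all genes in the former, against 111 in the main fit. In the latter they called 68 to 188, against 354. The log2 fold change of Cyp24a1 in PBS versus Ctrl was 0.07 (SE 0.33, adjusted p = 0.937). The enzyme is made mainly in the proximal tubule, and the sum of 5 proximal markers was 1038 to 1324 FPKM in Ctrl, 694 to 1287 in PBS and 1049 to 1293 in FLX mice, with none at 0 throughout a group.

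How the 10 genes varied together between mice was measured after the group means were subtracted, over 45 pairs and 18 mice. Trpv5 and Trpm6, the apical channels, had a Pearson's r of 0.78 (permutation p = 0.000140, adjusted p = 0.00630) and a Spearman's rho of 0.78 (permutation p = 0.000520, adjusted p = 0.0234). The r was 0.76 without the 2 mice farthest from the median of Trpv5, PBS replicate 6 and FLX replicate 3. It was 0.69 without Ctrl replicate 3 and PBS replicate 6, and 0.78, 0.83 and 0.90 within Ctrl, PBS and FLX. This was the 1 pair that passed by both measures. The other 3 pairs that passed did so by Pearson's r only. Trpm7 and Casr had an r of 0.72 (permutation p = 0.00414, adjusted p = 0.0466) and a rho of 0.54 (p = 0.0110, adjusted p = 0.0993), and the r was 0.58 without Ctrl replicate 3 and PBS replicate 6. Trpm7 and Pvalb had -0.65 (permutation p = 0.00105, adjusted p = 0.0236) and -0.70 (p = 0.00241, adjusted p = 0.0517), with -0.54 without the same 2 mice. S100g and Egf had -0.67 (permutation p = 0.00402, adjusted p = 0.0466) and -0.64 (p = 0.00866, adjusted p = 0.0974), with -0.50 without Ctrl replicate 3 and FLX replicate 6. Calb1 and S100g, the calbindins, had an r of 0.40 (adjusted p = 0.240), and Calb1 and Trpv5 0.50 (adjusted p = 0.240).

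**Figure D4:**
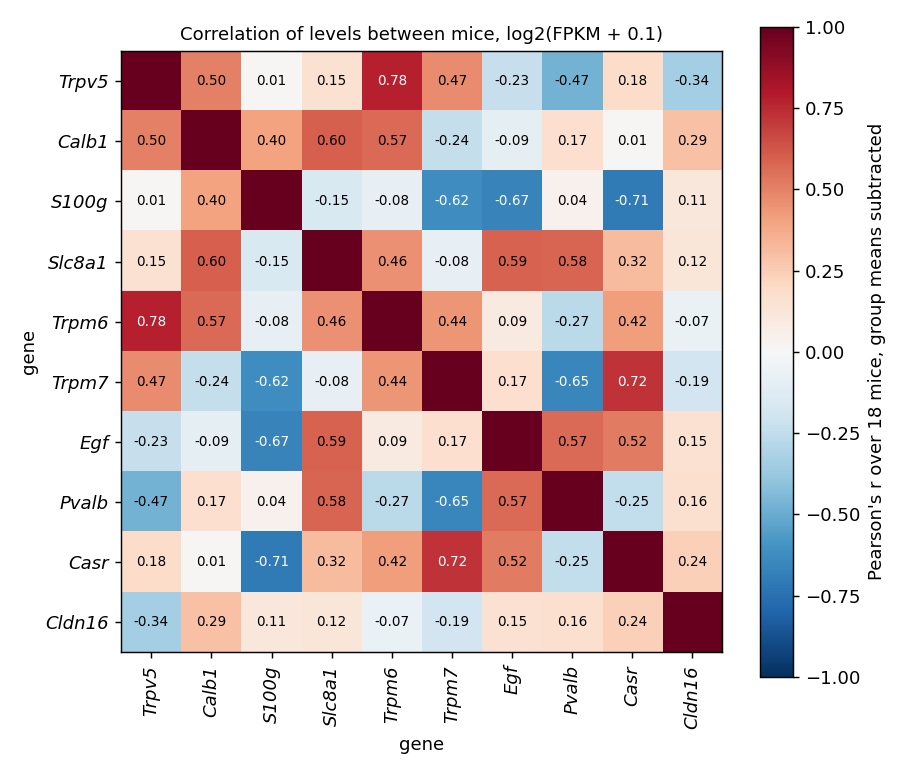
Pearson's r of each pair of genes (both axes, genes) over 18 mice on log2(FPKM + 0.1) with group means subtracted, from -1 (blue) to 1 (red). The highest value off the diagonal is that of Trpv5 and Trpm6, 0.78, and Egf, Casr and Trpm7 are each negative with S100g.

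For each gene, the 2 genes of most like pattern between mice were sought among 12126 genes, as a description over the same 18 mice. Trpv5 was most like Ripor1 (r = 0.934) and Podxl (0.919), a podocyte gene, and Trpm6 most like Wnk1 (0.887) and U2af2 (0.876). Wnk1 encodes a kinase that acts on sodium-chloride transport in the distal convoluted tubule. Calb1 was most like Necap1 (0.848) and Gna12 (0.835), S100g most like Yif1a (0.935) and Chchd2 (0.928), and Slc8a1 most like Sfrp1 (0.900) and Dnajc6 (0.899). Pvalb was most like Miox (0.969) and Pdzk1 (0.966), a pair known from the proximal tubule, and Egf most like Lpgat1 (0.976) and Cmah (0.962). Trpm7 went with Ubr3 (0.942) and Erbin (0.941), Casr with Mysm1 and Fcho2 (0.913 each), and Cldn16 with Jpt2 (0.796) and Pigu (0.790). The like genes of Trpv5 and Calb1 did not include each other. PBS replicate 6 had the lowest Pvalb level (1.51 FPKM) and the lowest sum of 5 proximal tubule genes (694 FPKM) of all mice. It also had the highest Trpv5 level (8.15 FPKM) and the highest sum of 3 podocyte genes (80.6 FPKM). The share of this mouse in these r values was not tested.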

How the data were processed

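Poly(A) RNA of the right kidneys of 18 mice was sequenced by the authors in read pairs. Per their methods, reads were cleaned with fastp, aligned to GRCm38 with HISAT-3N and assembled with StringTie, while the submitters' processing notes list cutadapt 1.9, HISAT2 2.0.4 and StringTie 1.3.4d. The authors deposited FPKM values (fragments scaled to exon length and mapped reads) and a count for each gene and mouse. The deposited counts are whole but were taken as estimated counts, since the value 4 was commoner (720 genes in the median mouse) than 3 (484.5 genes) or 5 (268 genes). Their tool is not named in the sources used here. Groups were taken from the sample titles, and no 2 mice of a group had the same counts.

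Counts were tested with edgeR 4.0.16 (TMM scaling, filterByExpr with a minimum count of 10, 1 quasi-likelihood model over 3 groups, two-sided), and p values were adjusted over 19946 genes by the Benjamini-Hochberg method. Standard errors were derived from the F statistic. Single values, on log2(FPKM + 0.1), and ratios were tested by exact permutation, and correlations by 100000 permutations within groups. The scripts were tested on simulated data. DESeq2 1.42.0, limma 3.58.1, other scalings and filters, a replicate block, and fits without each mouse were the alternatives. Same-numbered mice of different groups correlated between -0.305 and 0.352 after group means were subtracted, and 4 of 18 pairs exceeded 0.1, so the numbers were not taken as pairs. The smaller sums of counts in FLX replicates 3 to 6 make low genes less precise there. Of the pathway lists, every gene called in a comparison was named, and otherwise the 2 with the smallest p. The 10 genes and all lists were chosen with earlier results of these data known. Coordinates are those of the table, equal to GENCODE vM21, and promoter windows come from RefSeq (GRCm38.p6).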

Additional observations from a re-analysis of the deposited data

Results flagged for a closer look

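Groups of 6 mice were searched for a highest or lowest mouse whose gap to the nearest other mouse, divided by the range of the group, exceeded 0.625. In 60 groups (30 of gene levels and 30 of ratios) 11 such mice were found. Chance alone gives about 1 in 20 groups where values are normally distributed. The 60 groups share mice and genes and are not independent, so the 11 cannot be weighed against this rate.

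Ctrl replicate 3 was the mouse in 6 of these. It had 11.3 FPKM of Trpm7 against 7.66 in the next Ctrl mouse, 6.49 FPKM of Casr against 3.65, 97.0 FPKM of Egf against 64.2, and 2.00 FPKM of Trpm6 against 1.40. Its ratio of Slc8a1 to Calb1 was 0.0982 against 0.0622 in the next Ctrl mouse, and its ratio of Egf to Umod was 0.0936 against 0.0745.

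PBS replicate 6 had 8.15 FPKM of Trpv5 against 6.09 in the next PBS mouse, a ratio of Cldn16 to Slc12a1 of 0.209 against 0.0881, and a ratio of Casr to Slc12a1 of 0.119 against 0.0435. FLX replicate 5 had 2.96 FPKM of Trpm6 against 2.32 in the next FLX mouse, and a ratio of Trpm6 to Trpm7 of 0.433 against 0.299.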

How the results depend on the processing

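The calls of Trpv5, Trpm6 and Calb1 in PBS versus Ctrl held in all 26 alternatives to the test, with adjusted p of at most 0.0153, 0.0187 and 0.0125. The study's limit of an absolute log2 fold change above 1 at an unadjusted p under 0.05 gave 0 of the 10 genes in PBS versus Ctrl and 0 in FLX versus Ctrl.

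In FLX versus Ctrl, where the main test called Trpm6, 2 genes (with Trpv5) were called by DESeq2, by limma with either pseudocount and with only the compared groups in the fit, and 0 with no filter on low counts, with the replicate block, and with FLX replicates 1 and 2 or 3 to 6 alone. Over all genes the main test called 354 there, DESeq2 1059, limma 570 and 934 (pseudocounts 0.1 and 1) and the compared groups alone 717. No filter left 162 calls over all genes, the replicate block 99, and the parts of the FLX group 2 and 35. Leaving out 1 mouse gave 0 to 2 of the 10 genes, with 68 to 2103 called over all genes. In FLX versus PBS it gave 0 to 1, the 1 being Calb1 without PBS replicate 5. That fit called 152 genes over all genes, against 111 in the main fit. Of the 28 other genes, PBS versus Ctrl gave 4 with DESeq2, 1 with the replicate block (Trpv6), 1 at the study's limit and 0 to 3 without 1 mouse (Atp2b1, Atp2b4 and Kcnj10 without Ctrl replicate 3). Over all genes these settings gave 1637, 539, 752 and 432 to 1724 in PBS versus Ctrl. FLX versus PBS gave 0 with limma at either pseudocount, with no filter, with only the compared groups, with the replicate block and in either part of the FLX group, and 0 to 1 without 1 mouse. Over all genes limma called 185 and 341 there, no filter left 69, the compared groups 10 and the block 48. The parts of the FLX group gave 0 and 3 over all genes, and fits without 1 mouse 33 to 192. FLX versus Ctrl gave 2 at the study's limit, 0 with limma on log2(FPKM + 0.1), 3 with a pseudocount of 1, 0 with the replicate block and in either part of the FLX group, and 0 to 3 without 1 mouse. The study's limit gave 417 over all genes in FLX versus Ctrl, and the other settings the numbers over all genes given above. The replicate block changed no other call of the 10 genes; each mouse correlated best with its own number in 7 of 36 cases. The cause of these changes was not tested.

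Of the values, 78 over 21 results reversed their sign, all at a main p of at least 0.558. This p was adjusted for edgeR and for the ratios, and unadjusted for the permutation tests of single genes. Casr in FLX versus PBS was 0.02 in FLX replicates 3 to 6 and with limma, and -0.06 on scaled CPM by permutation. In FLX versus Ctrl it was -0.13 in FLX replicates 1 and 2, -0.02 with upper-quartile scaling and -0.00 with no filter and with the replicate block. Pvalb in FLX versus PBS was -0.05 in FLX replicates 3 to 6. Egf in FLX versus PBS was 0.02 there and with the replicate block, 0.13 with limma and 0.01 with upper-quartile scaling. Trpm7 in FLX versus Ctrl was 0.02 with limma and -0.07 on scaled CPM. Leaving out 1 mouse gave the following ranges. Log2 fold changes of Casr went from -0.10 to 0.17 (FLX versus Ctrl), -0.15 to 0.03 (FLX versus PBS) and -0.03 to 0.22 (PBS versus Ctrl), of Egf from -0.15 to 0.10 (FLX versus PBS) and -0.03 to 0.22 (PBS versus Ctrl), of Pvalb from -0.17 to 0.24 (FLX versus PBS) and of Trpm7 from -0.13 to 0.04 (FLX versus Ctrl). Differences by permutation went from -0.02 to 0.24 and -0.09 to 0.08 for Casr (FLX versus Ctrl and PBS), -0.04 to 0.22 and -0.05 to 0.22 for Egf (FLX versus PBS, PBS versus Ctrl), -0.04 to 0.79 for Pvalb and -0.03 to 0.14 for Trpm7. Ratios went from -0.12 to 0.10, -0.23 to 0.23 and -0.24 to 0.22 for Casr/Slc12a1 (FLX versus Ctrl, FLX versus PBS, PBS versus Ctrl), -0.14 to 0.34 for Cldn16/Slc12a1, -0.20 to 0.04 for Egf/Umod, -0.09 to 0.82 for Pvalb/Slc12a3, -0.10 to 0.11 for S100g/Calb1 and -0.11 to 0.08 for Trpm6/Trpm7. Pvalb/Slc12a3 in FLX versus Ctrl passed without Ctrl replicate 3 (-0.84, adjusted p = 0.0216). Levels rest on 133 to 112830 counts a mouse, so the spread between mice rather than counting limits these comparisons.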
